A study of Mus musculus with 924 samples.

Results

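The nuclei described here were dentate gyrus granule nuclei of old and young adult mice, 338 of the 924 single nuclei of the study. They were 102 granule nuclei from mice aged 2 years and 236 from mice aged 12 weeks, kept from the 440 nuclei of these sets. A nucleus was kept when Prox1, the transcription factor that marks granule cells, had a value above 0, when at least 2 of C1ql2, C1ql3, Fam163b, Glis3 and Sema5a had one, and when Gad2, a GABA-synthesis gene of inhibitory neurons, was at 0. The members were chosen by these measured values, so the 7 rule genes are not findings. At the edge of the rule, 3 nuclei of 12 weeks and 2 of 2 years had exactly 2 of the 5 genes, with median Prox1 levels of 8.05 and 10.17 on the log2(value + 1) scale. Just outside it, 1 nucleus of 12 weeks had 1 of the genes and a Prox1 level of 4.92.

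The study isolated single nuclei from mouse hippocampus, sorted them into plates and made a full-length cDNA library of each nucleus. All mice used here were C57BL/6, with no transgene, allele or treatment in their labels. The preparations at 12 weeks were labelled DG (dentate gyrus). At 2 years, preparation 2 was labelled DG and preparation 1 carried no region label. Nuclei of 1 age with the same number in their labels form a preparation, which is the replicate in every test. The labels do not say whether that number counts animals, pools of animals or plates, and the p-values cover the spread from preparation to preparation only, which may be technical. The 2-year preparations held 42 and 60 granule nuclei, and the 12-week preparations 1 to 4 held 89, 39, 58 and 50. Preparation 1 of 12 weeks was made of 2 sets of nuclei. A further 69 granule nuclei from mice aged 4 weeks, in 2 preparations, entered the fit to share the estimate of spread. Their levels are given for the named genes that were called, and not for most other genes.

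Granule cells are the principal excitatory neurons of the dentate gyrus. They receive input from the entorhinal cortex and send mossy fibres to CA3, and new granule cells are added to the layer in the adult rodent. Calcium entering through their synapses acts on calmodulin and the calmodulin-dependent kinases, while BMP signalling acts through SMAD proteins on the Id genes, whose products hold back basic helix-loop-helix transcription factors. With age the dentate gyrus is known to lose neurogenesis and to change in excitability.

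In nuclei of 2 years, Camk2d, Id2 and Nrxn3 were higher than at 12 weeks, and Lypd1, Crym, Mmp17 and Alcam were lower. A gene was called when its adjusted p from limma was under 0.05, adjusted by Benjamini-Hochberg across the 11003 genes tested. Of these, 53 were called (0.482%), 49 higher at 2 years (0.445%) and 4 lower (0.0364%). Levels are the mean over granule nuclei of log2(value + 1), where the value is the deposited expression value. These values are labelled TPM, but their totals per nucleus exceeded the total that defines TPM. The median of all tested genes was 0.19 higher at 2 years, so each difference below is given relative to that median, while its SE and adjusted p belong to the difference before this subtraction. A gene was detected in a nucleus when its value was above 1.

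The number of called genes was not steady. Without 2-year preparation 1, 4 genes were called, of which 2, Camk2d and Id2, were among the 53. In nuclei with 4000 to 6000 detected genes, 8 were called, and all 8 were among the 53. With detected genes per nucleus as a covariate, 16 were called, 9 higher and 7 lower, and 7 of them were among the 53.

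Camk2d, the delta subunit of calcium/calmodulin-dependent kinase II, lies at chr3:126596302-126846326 on the plus strand of GRCm38. Its level was 5.02 and 4.91 in the 2-year preparations and 0.59, 0.87, 0.49 and 0.73 in preparations 1 to 4 of 12 weeks. Both 2-year preparations were far above every 12-week preparation, and they differed little from each other. The mean was 4.97 ± 0.07 (SD, n = 2) against 0.67 ± 0.16 (SD, n = 4), a relative difference of 4.10 (SE 0.42, limma adjusted p = 1.96e-07). The 4-week levels, 0.96 and 0.47, were just above the highest and just below the lowest 12-week level. Camk2d was detected in 24 of 42 (57.1%) and 35 of 60 (58.3%) granule nuclei at 2 years. At 12 weeks it was detected in 6 of 89 (6.74%), 5 of 39 (12.8%), 3 of 58 (5.17%) and 4 of 50 (8%). The 95% Wilson intervals, which cover counting error only, reached down to 42.2% at 2 years and up to 26.7% at 12 weeks. Camk2d passed the filter on low values only through the 2-year preparations, one of 2 such genes among the 49 called higher, and it was called without the filter too (limma adjusted p = 0.00207). The call was lost in 2 of 23 alternatives, with the log2 of the mean value (0.337) and without nuclei that had glial or Slc17a6 detection (0.66). In the nuclei that had the transcript, its median level was 9.32 and 8.83 at 2 years and 7.15 to 9.74 at 12 weeks, so the groups overlapped there.

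The sequence before the RefSeq start of Camk2d (GRCm38.p6, chr3:126596701-126596950, plus strand, 5′ to 3′) is shown because Camk2d had the lowest p of all tested genes. No data on binding or methylation at this window were used here.
Camk2d: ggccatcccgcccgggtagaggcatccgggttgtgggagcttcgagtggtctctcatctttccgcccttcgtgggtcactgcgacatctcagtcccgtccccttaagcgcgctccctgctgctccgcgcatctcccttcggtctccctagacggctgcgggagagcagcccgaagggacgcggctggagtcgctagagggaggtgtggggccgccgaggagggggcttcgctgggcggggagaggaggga
The window holds 23 CG dinucleotides in 250 bases, where the median of 32851 RefSeq windows of this length is 6, and 68.4% of its bases are G or C. It lies within an intron of the noncoding transcript Camk2d-212 and overlaps no annotated exon. The E-box CANNTG and the CRE half-site TGACG, each searched on both strands, were not found in these letters, so none are in capitals. They occurred in 66.2% and 17.8% of all windows.

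The other 3 subunits of the kinase had overlapping groups. Camk2a, the alpha subunit, was at 10.85 and 11.91 at 2 years and 11.79 to 12.00 at 12 weeks. Camk2b, the beta subunit, was at 12.49 and 12.60 against 12.57 to 12.80, and Camk2g, the gamma subunit, at 8.52 and 9.58 against 8.54 to 8.89. None of these was called. Among 20 tested calcium and calmodulin kinase genes, 2 were called higher and 0 lower with limma, and 4 were higher and 2 lower at unadjusted p under 0.05. Over all genes those unadjusted shares were 9.81% and 2.3%. The other called member was Calm2, a calmodulin gene, at 13.71 and 13.54 against 12.12 to 13.13 (relative difference 0.90, SE 0.25, limma adjusted p = 0.0377). At 4 weeks Calm2 was at 12.18 and 12.52, and its call was lost in 15 of 23 alternatives. Calb1, the calcium buffer calbindin of mature granule cells, was at 6.20 and 6.97 against 7.64 to 8.73. Its groups did not overlap and it was not called (limma adjusted p = 0.132). The median relative difference of the list was 0.13.

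Id2, an inhibitor of basic helix-loop-helix transcription factors and a known target of BMP signalling, lies at chr12:25093799-25097140 on the minus strand. Its level was 5.56 and 5.87 at 2 years and 3.08, 0.96, 1.55 and 1.24 in 12-week preparations 1 to 4. The groups did not overlap, and 12-week preparation 1 was the highest of its age. In its 2 sets of nuclei the level was 2.54 and 3.62. The mean was 5.71 ± 0.22 (SD, n = 2) against 1.71 ± 0.95 (SD, n = 4), a relative difference of 3.81 (SE 0.62, limma adjusted p = 0.00143). At 4 weeks the levels were 5.25 and 3.76, also above every 12-week preparation, a difference that was not tested. Id2 was detected in 59.5% and 61.7% of granule nuclei at 2 years and in 31.5%, 10.3%, 15.5% and 14% at 12 weeks. The lowest interval bound at 2 years was 44.5% and the highest at 12 weeks was 41.7%. When the mean was taken before the log, the difference before subtraction was 1.82 in place of 4.00 and was not called (limma adjusted p = 0.416). The call was lost in 5 of 23 alternatives, with limma adjusted p of 0.0878 to 0.66. They included the log2 of the mean value and the fits with detected genes as a covariate and with the replicate block. The others were the fits without the filter and without nuclei that had glial or Slc17a6 detection.

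Id2 was the 1 called member among 17 tested genes of the BMP and TGF-beta pathway. At unadjusted p under 0.05, 3 of the 17 were higher and 1 lower, beside 9.81% and 2.3% of all genes. The Id2 relatives Id1, Id3 and Id4 had levels of at most 0.29 in every 2-year and 12-week preparation and were not tested. Among receptors, Acvr1c was at 3.67 and 4.75 at 2 years and 2.07 to 3.33 at 12 weeks, and Acvr2a at 4.43 and 4.09 against 5.25 to 5.81. Neither was called, and neither overlapped between the ages. Over all tested genes, both 2-year preparations lay above all 12-week preparations in 18.3% and below them in 5.02%, so separate groups alone are common. Smad7, an inhibitory SMAD, was at 1.18 and 1.29 against 0.38 to 0.84 and was not called. Bmpr1a and Bmpr2, receptors for BMP ligands, had overlapping groups.

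Lypd1, a membrane-anchored Ly6-family protein that binds nicotinic receptors, lies at chr1:125867622-125913101 on the minus strand. Its level was 4.03 and 4.16 at 2 years and 7.38, 7.28, 9.08 and 7.57 at 12 weeks. Both 2-year preparations were below every 12-week preparation, and 12-week preparation 3 was the highest. The mean was 4.09 ± 0.09 (SD, n = 2) against 7.83 ± 0.85 (SD, n = 4), a relative difference of -3.93 (SE 0.62, limma adjusted p = 0.00353). The 4-week levels of 6.60 and 5.15 lay between the other ages. Lypd1 was detected in 45.2% and 46.7% of granule nuclei at 2 years and in 71.9%, 74.4%, 91.4% and 76% at 12 weeks. The intervals touched, with 60.1% as the highest bound at 2 years and 58.9% as the lowest at 12 weeks. In nuclei with the transcript the median level was 9.28 and 9.99 at 2 years and 10.41 to 10.73 at 12 weeks. The call was lost in 6 of 23 alternatives, with limma adjusted p of 0.0593 to 0.66. They were the fits without 2-year preparation 1 (0.0728), with detected genes as a covariate, with the log2 of the mean value (difference before subtraction -1.43 in place of -3.74), without the filter, without nuclei that had glial or Slc17a6 detection, and with the replicate block.

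Of 7 tested Ly6 and nicotinic receptor genes, Lypd1 was the 1 called lower and the 1 lower at unadjusted p under 0.05. Lynx1, a prototoxin that also binds nicotinic receptors, was at 3.62 and 3.68 against 3.80 to 5.05 and was not called. The receptor subunits Chrna7 and Chrnb2 had overlapping groups, at 0.91 and 1.65 against 0.71 to 1.68 and at 2.84 and 2.40 against 2.27 to 3.92.

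**Figure D1:**
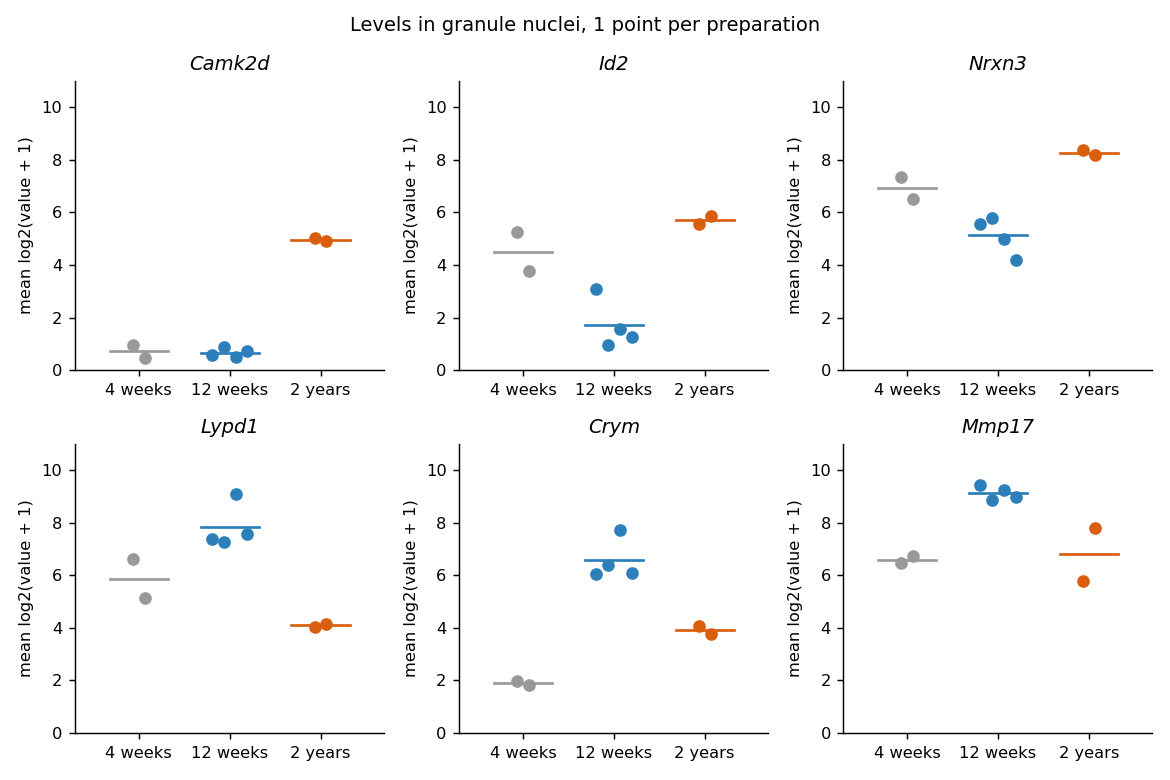
Level in granule nuclei, mean log2(value + 1), of 3 genes higher (top row) and 3 lower (bottom row) at 2 years than at 12 weeks, by age. Each point is 1 preparation and each line the mean of an age. Camk2d is near 5 in both 2-year preparations and under 1 in all others, while Id2 and Nrxn3 are also high at 4 weeks and Crym is lowest at 4 weeks.

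The shares of 2-year granule nuclei with 1 of these transcripts were also taken beside another of them. In preparation 1, Id2 was detected in 50% of the 24 nuclei with Camk2d and in 72.2% of the 18 without it. In preparation 2 the shares were 68.6% of 35 and 52% of 25. Lypd1 was detected in 41.7% and 42.9% of nuclei with Camk2d and in 50% and 52% of those without, the same direction in both preparations. It was detected in 48% and 35.1% of nuclei with Id2 and in 41.2% and 65.2% of those without, where the direction differed. These are descriptions of nuclei from 2 preparations, with no test.

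The same genes were also present in the nuclei of these sets that the rule left out, 33 at 2 years and 69 at 12 weeks. These nuclei came unevenly from the preparations, 21 and 12 at 2 years and 46, 1, 14 and 8 in preparations 1 to 4 of 12 weeks. The shares below pool nuclei over preparations, so they describe nuclei and not replicates. Camk2d was detected in 45.5% of the left-out nuclei at 2 years and 36.2% at 12 weeks. Id2 was detected in 51.5% and 33.3% of them, and Lypd1 in 33.3% and 49.3%. Whether the age difference of granule nuclei differed from that of the left-out nuclei was not tested.

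The other 3 genes called lower were Crym, Mmp17 and Alcam. Crym, a crystallin-family protein that binds thyroid hormone (chr7:120186380-120202111), was at 4.07 and 3.75 at 2 years and 6.06, 6.38, 7.73 and 6.08 at 12 weeks. The groups did not overlap, and the relative difference was -2.84 (SE 0.62, limma adjusted p = 0.0392). At 4 weeks Crym was at 1.97 and 1.82, below both older ages. It was detected in 40.5% and 38.3% of nuclei at 2 years and in 58.4% to 74.1% at 12 weeks.

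Mmp17, a membrane-anchored matrix metalloproteinase (chr5:129584169-129611099), was at 5.78 and 7.80 at 2 years and 8.85 to 9.45 at 12 weeks. At 4 weeks it was at 6.46 and 6.72, also below every 12-week preparation. The lower value at 2 years was that of preparation 1. The relative difference was -2.53 (SE 0.55, limma adjusted p = 0.0411), and without preparation 1 the difference before subtraction was -1.32 in place of -2.33 (limma adjusted p = 0.469). Alcam, a cell adhesion molecule of the immunoglobulin family (chr16:52248996-52454074), was at 1.08 and 1.72 against 3.20 to 4.33. Its groups were apart, with a relative difference of -2.49 (SE 0.52, limma adjusted p = 0.0355). At 4 weeks Alcam was at 1.15 and 1.96, also below every 12-week preparation. It was detected in 14.3% and 21.7% of nuclei at 2 years and in 44.8% to 56% at 12 weeks. The calls of Crym, Mmp17 and Alcam were lost without any of 12-week preparations 1, 2 or 3, with limma adjusted p of 0.0502 to 0.135, those of Mmp17 and Alcam also without preparation 4 (0.0718 for each), and those of Crym and Alcam also without either 2-year preparation (0.0788 to 0.287).

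**Figure D2:**
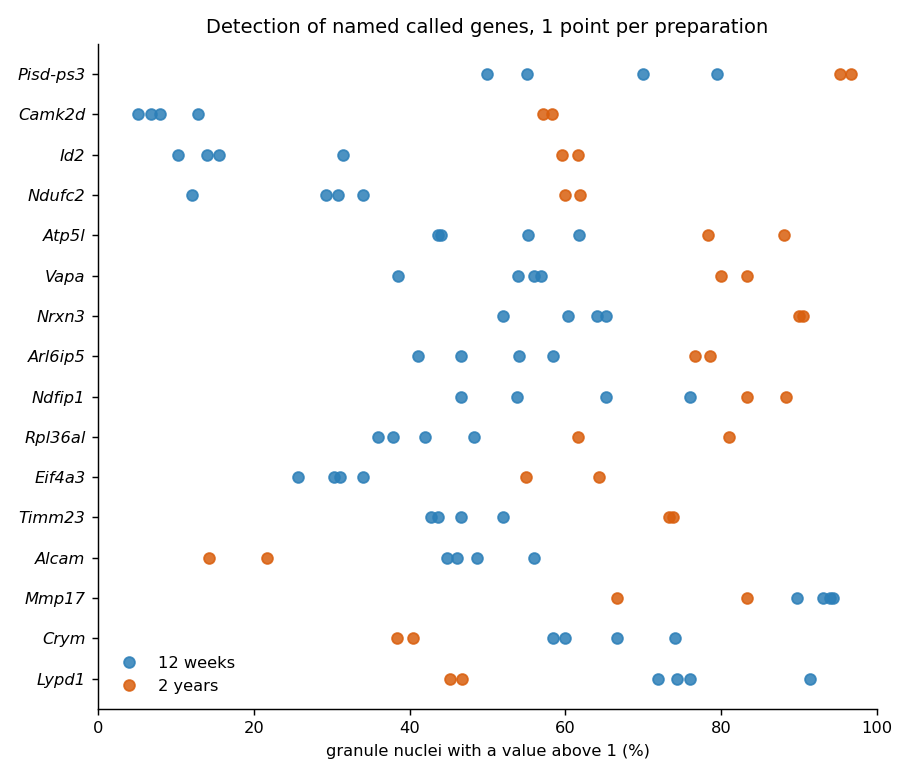
Share of granule nuclei with a value above 1 (x axis, percent) for the 12 named genes called higher with the largest differences and the 4 called lower (y axis), 1 point per preparation. For every gene shown, both 2-year points lie on 1 side of the 12-week points, which follows largely from choosing genes with separate groups. Camk2d is at 57.1% and 58.3% at 2 years and between 5.17% and 12.8% at 12 weeks.

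Among synaptic genes, Nrxn3, a presynaptic neurexin (chr12:88722876-90334935), was at 8.38 and 8.17 at 2 years and 5.55, 5.80, 4.98 and 4.20 at 12 weeks. The groups did not overlap, and the relative difference was 2.95 (SE 0.60, limma adjusted p = 0.0163). At 4 weeks it was at 7.36 and 6.51. Without 2-year preparation 1 or 2 the call was lost (limma adjusted p = 0.121 and 0.0507). Nrxn2, another neurexin, had overlapping groups, at 3.34 and 6.02 against 4.72 to 5.30. Lphn3, an adhesion receptor of the latrophilin family, was at 6.00 and 5.95 against 3.58 to 4.38 and was not called (limma adjusted p = 0.123). Of 28 tested synaptic adhesion genes, 1 was called higher and 0 lower. At unadjusted p under 0.05, 2 were higher and 3 lower, beside 9.81% and 2.3% of all genes. The median relative difference of the 28 was -0.55, and 9 of them lay above the median of all genes.

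None of 17 tested AMPA, kainate and NMDA receptor genes was called with limma, and at unadjusted p under 0.05 there were 0 higher and 1 lower. Their median relative difference was -0.61. Grik3, a kainate receptor subunit, was at 2.36 and 3.44 against 3.27 to 5.60 and had the lowest p of the list (limma adjusted p = 0.36). Gria1 and Grin1, subunits of AMPA and NMDA receptors, had overlapping groups. Of 11 GABA receptor genes, 0 were called, with 2 higher and 1 lower at unadjusted p under 0.05. The latter was Gabbr2, a GABA-B subunit, at 7.17 and 7.75 against 8.51 to 9.59. Of 26 potassium channel genes, 0 were called, with 1 higher and 3 lower, and of 23 sodium, calcium and HCN channel genes, 0 were called, with 0 higher and 2 lower. Over all genes the shares at unadjusted p under 0.05 were 9.81% higher and 2.3% lower. Ryr1, a calcium release channel, was at 3.23 and 3.52 against 4.92 to 6.93 and Kcnn3, a calcium-activated potassium channel, at 0.93 and 1.18 against 2.24 to 2.63. Both had separate groups and neither was called (limma adjusted p = 0.0854 and 0.114).

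Genes of oxidative phosphorylation and of the cytosolic ribosome lay above the median of all genes at 2 years. Of 27 tested nuclear-encoded oxidative phosphorylation genes, 2 were called higher and 0 lower with limma. At unadjusted p under 0.05, 17 were higher and 0 lower, beside 9.81% and 2.3% of all genes. All 27 were above the median of all tested genes, with a median relative difference of 1.24. Uqcrb, a complex III subunit, was at 6.49 and 7.41 at 2 years and 4.81, 3.06, 4.40 and 4.77 at 12 weeks (relative difference 2.49, SE 0.63, limma adjusted p = 0.0411). Atp5g3, a subunit of the ATP synthase ring, was at 9.34 and 9.92 against 8.20, 6.01, 6.41 and 7.50 (relative difference 2.41, SE 0.57, limma adjusted p = 0.0298). Both 2-year preparations were above all 12-week preparations for these 2 genes. At 4 weeks Uqcrb was at 5.60 and 5.10, above all 12-week preparations, and Atp5g3 at 8.29 and 7.42, which overlapped them. Cox5a of complex IV (8.10 and 8.11 against 3.86 to 6.27), Uqcrh of complex III and Sdha of complex II had separate groups as well and were not called. Cox7c, Cox8a and Atp5b had overlapping groups.

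Of 28 cytosolic ribosomal protein genes, 1 was called higher and 0 were called lower. At unadjusted p under 0.05, 18 were higher and 0 lower, beside 9.81% and 2.3% of all genes. The median relative difference of the 28 was 1.21, and 26 lay above the median of all genes. The called member was Rpl10, at 10.72 and 10.97 against 8.87, 8.77, 8.22 and 9.09 (relative difference 1.92, SE 0.42, limma adjusted p = 0.0163). At 4 weeks Rpl10 was at 11.11 and 9.91, also above all 12-week preparations. Genes of these families have processed pseudogenes, so how reads were divided between copies is uncertain. When the mean was taken before the log, the median relative difference of the oxidative phosphorylation list was 0.43 and that of the ribosomal list 0.21. In nuclei with 4000 to 6000 detected genes they were 0.86 and 0.90, with no called member in either list.

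**Figure D3:**
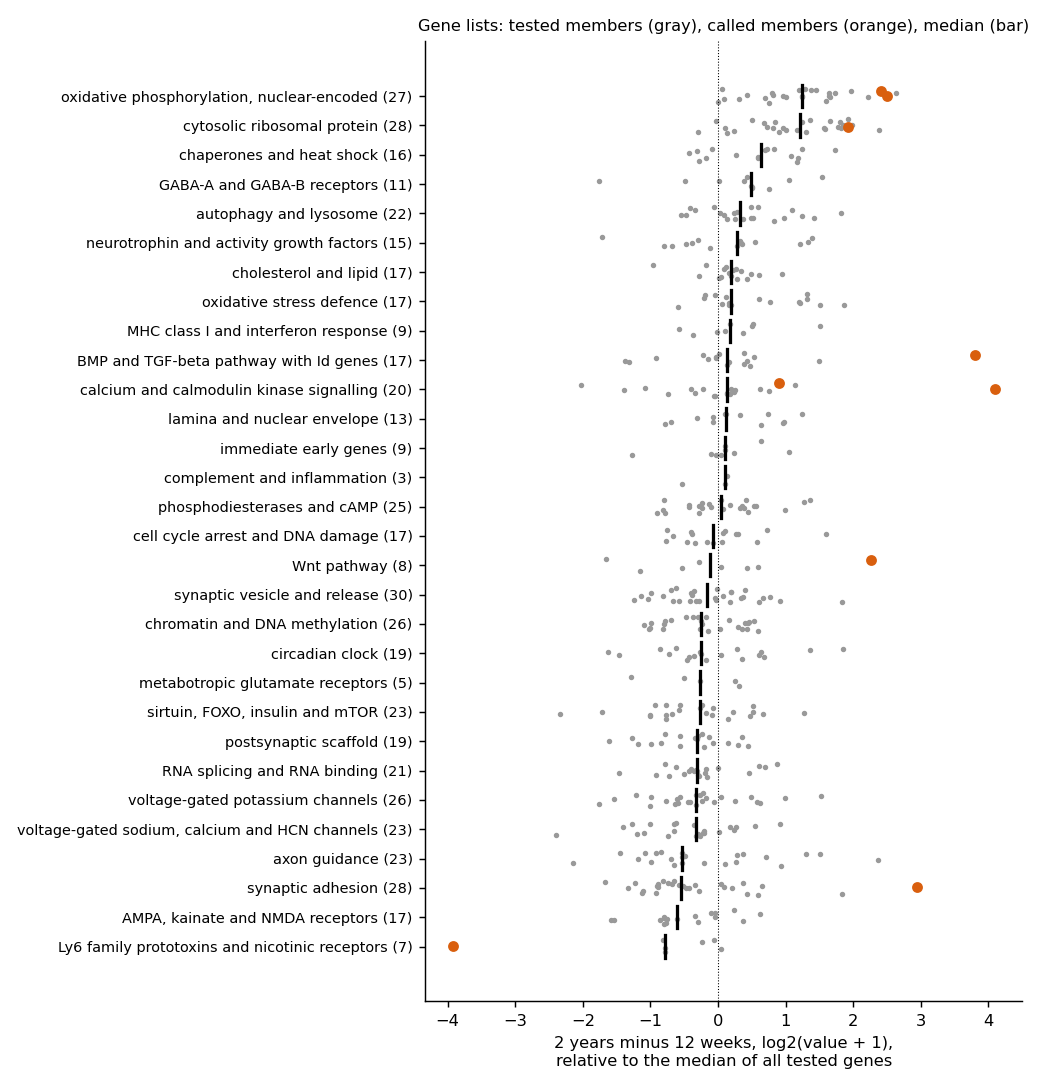
Difference between 2 years and 12 weeks in log2(value + 1), relative to the median of all tested genes (x axis), for the tested members of 30 gene lists (y axis, number of tested members in brackets). Gray points are members, orange points are called members and bars are list medians. The medians of the oxidative phosphorylation and ribosomal lists, 1.24 and 1.21, lie farthest to the right.

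Further genes called higher, named by the size of their difference and separate groups, follow. Ndufc2, a complex I subunit, was at 6.12 and 6.13 at 2 years and 1.21 to 3.30 at 12 weeks (relative difference 3.27, limma adjusted p = 0.0163). Atp5l, an ATP synthase subunit, was at 8.79 and 8.53 against 3.94 to 6.58, and Timm23, of the mitochondrial inner membrane translocase, at 7.64 and 7.42 against 4.22 to 5.17. These 3 genes encode mitochondrial proteins. Vapa, an endoplasmic reticulum contact-site protein, was at 8.12 and 8.05 against 3.54 to 5.69. Arl6ip5, a regulator of membrane transporters, was at 7.997 and 7.29 against 3.53 to 5.61. Ndfip1, an adaptor of NEDD4-family ubiquitin ligases, was at 8.71 and 8.73 against 4.30 to 7.49. The relative differences of Vapa, Arl6ip5 and Ndfip1 were 2.97, 2.90 and 2.83. Eif4a3, a core protein of the exon junction complex, was at 6.52 and 5.49 against 2.58 to 3.33, and Rpl36al, a ribosomal protein gene outside the list, at 8.07 and 6.35 against 3.81 to 5.11. At 4 weeks Ndufc2 (5.78 and 3.74), Vapa (7.96 and 6.77), Eif4a3 (5.72 and 4.82) and Rpl36al (5.54 and 5.70) were above every 12-week preparation. Levels of Atp5l (5.60 and 6.46), Timm23 (6.21 and 4.56), Arl6ip5 (4.60 and 5.88) and Ndfip1 (8.98 and 7.06) overlapped the 12-week levels. Pisd-ps3, a pseudogene, had the largest difference of all tested genes (4.15), at 11.03 and 10.06 against 4.72 to 8.08, and at 12.08 and 11.31 at 4 weeks. Its reads may be shared with its parent gene, so this value is uncertain.

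**Figure D4:**
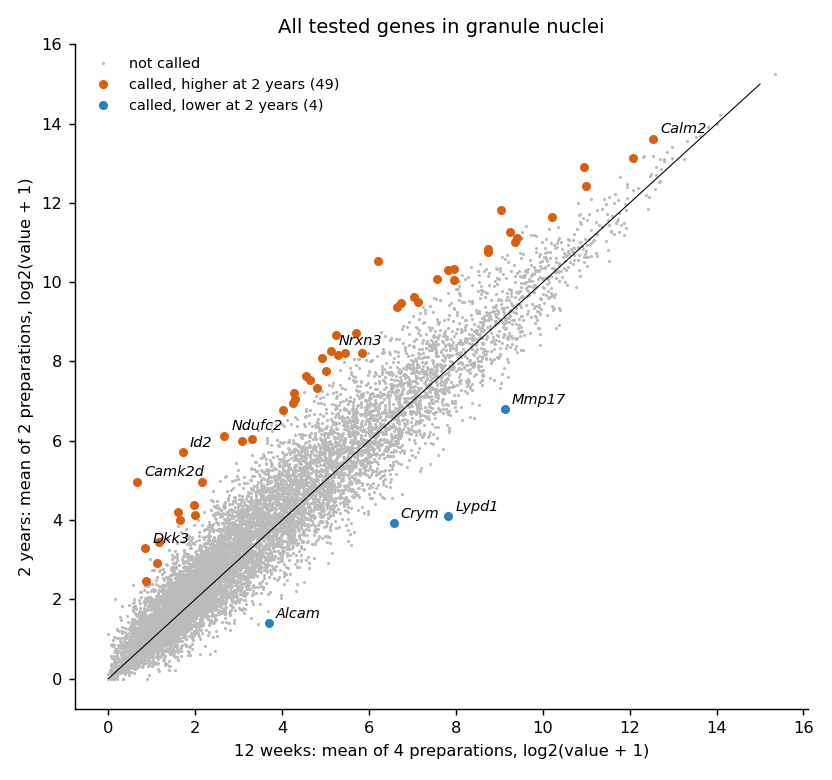
Mean level of each of the 11003 tested genes at 12 weeks (x axis, 4 preparations) and 2 years (y axis, 2 preparations), in log2(value + 1), with the line of equality. Orange points are the 49 genes called higher and blue points the 4 called lower at 2 years. Camk2d and Id2 stand above the cloud at low 12-week levels, and Lypd1, Crym and Mmp17 stand below it.

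Dkk3, a secreted protein of the Dickkopf family, was the 1 called member of 8 tested Wnt pathway genes. Its level was 4.22 and 2.38 at 2 years and 0.83, 0.99, 0.73 and 0.83 at 12 weeks. At 4 weeks it was at 0 and 0.996. Preparation 1, without a region label, was the higher of the 2-year pair, and both were above all 12-week preparations (relative difference 2.26, SE 0.44, limma adjusted p = 0.00714). Without preparation 1 the call was lost, with a difference before subtraction of 1.53 in place of 2.45 (limma adjusted p = 0.208). Dkk3 was detected in 45.2% and 31.7% of nuclei at 2 years and in at most 12.8% of any younger preparation, so it entered the test only through the 2-year preparations. Without the filter on low values it was not called (limma adjusted p = 0.197). Dkk3 is also a marker of CA1 pyramidal cells. The summed level of 8 CA1 markers, Dkk3 included, was 7.72 to 7.95 at 2 years and 4.65 to 6.83 at 12 weeks. Without Dkk3 the sums of the other 7 were 3.74 and 5.34 at 2 years and 3.82 to 6.10 at 12 weeks, which overlapped. The CA1 markers Spink8 and Nov were at 0 in both 2-year preparations, and Mpped1 and Neurod6 were at most 0.18. The rest of the 2-year sums of 3.74 and 5.34 came from the CA1 markers Wfs1, Fibcd1 and Pou3f1.

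In 23 of the 30 gene lists no tested member was called with limma. Counted per list, 43 of their tested members (10.6%) were higher and 14 (3.45%) lower at unadjusted p under 0.05, near the 9.81% and 2.3% of all genes. Of 16 chaperone and heat shock genes, 7 were higher and 0 lower at that threshold. Hspa2, an Hsp70 family member, was at 5.10 and 5.98 against 2.17 to 4.71 (limma adjusted p = 0.199). Of 22 autophagy and lysosome genes and of 17 oxidative stress genes, 6 each were higher and 0 lower. Map1lc3b, which coats autophagosomes, was at 8.42 and 7.63 against 5.21 to 6.73, and Sod1, a superoxide dismutase, at 9.40 and 10.67 against 7.002 to 8.78. Neither was called (limma adjusted p = 0.0933 and 0.0653). At 4 weeks Map1lc3b was at 8.69 and 8.23, also above all 12-week preparations, and Sod1 at 8.63 and 7.65, which overlapped them. The summed level of the autophagy and lysosome list was 128 and 114 at 4 weeks, 112 and 111 at 2 years and 96.5 to 99.9 at 12 weeks. At 4 weeks the sums of the oxidative stress and chaperone lists overlapped those of 12 weeks.

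The listed genes often followed in the aged brain did not pass the test. It called 0.482% of all genes, so 0 called in lists this short says little. Of 9 immediate early genes 0 were called. At unadjusted p under 0.05, 1 was higher and 0 lower, beside 9.81% and 2.3% of all genes. The higher gene was Junb, at 1.98 and 3.65 against 1.29 to 1.79. Of 9 tested MHC class I and interferon genes, 3 complement and inflammation genes and 17 genes of cell cycle arrest and DNA damage, 0 were called. At unadjusted p under 0.05, 1 of the 9, 0 of the 3 and 1 of the 17 were higher, and 0 in each list were lower. B2m, the light chain of MHC class I, was at 3.46 and 3.58 against 0.85 to 2.59, and Cdkn2d, a CDK4 and CDK6 inhibitor, at 5.09 and 4.02 against 2.60 to 3.07. Both had separate groups (limma adjusted p = 0.132 and 0.147). Irs2, an insulin receptor substrate, was at 2.33 and 3.48 against 4.59 to 5.53 and was not called (limma adjusted p = 0.0788). Nrn1, an activity-regulated neurotrophic gene, was at 10.48 and 10.81 against 8.71 to 9.82 and was not called (limma adjusted p = 0.0851).

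Levels of 15 granule genes outside the rule were compared between the ages. No other cell type entered this comparison, so it does not check granule identity. None of the 15 was called with limma, which called 0.482% of all genes. At unadjusted p under 0.05, 2 were higher and 3 (Calb1, Rfx3 and Bcl11b) lower, beside 9.81% and 2.3% of all genes, and the list's median relative difference was -0.42. Their summed level was 92.4 to 104 at 2 years and 96.3 to 109 at 12 weeks. Ntng1, a netrin-family membrane protein, had the lowest p, at 5.67 and 7.15 against 2.95 to 4.85 (limma adjusted p = 0.0672). Dcx, a marker of immature neurons, was at 0.44 and 0.26 at 2 years and 0.9995 to 1.70 at 12 weeks and was not called (limma adjusted p = 0.255). The 10 immature neuron markers summed to 17.4 to 20.8 at 2 years and 16.8 to 20.5 at 12 weeks.

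Markers of other cells were compared in the same nuclei. The summed level of 8 mossy cell markers was 15.6 to 16.7 at 2 years and 12.9 to 13.6 at 12 weeks, with Drd2 at 0 in every preparation. Of 5 tested mossy cell markers, 4 lay above the median of all genes and 0 were called with limma or had an unadjusted p under 0.05. The summed level of 11 GABAergic markers was 16.2 to 16.8 against 14.6 to 15.1, so the ages did not overlap. Slc32a1, Sst, Pvalb and Vip were at 0 in both 2-year preparations, and other members made up the sums. The rule had already left out nuclei with Gad2, so these 0 values are no separate check. Of 3 tested GABAergic markers, 2 lay above the median of all genes and 0 were called or had an unadjusted p under 0.05. Gad1, the largest part of the GABAergic sum, was at 7.19 and 6.81 at 2 years and 4.66 to 6.94 at 12 weeks and was not called (limma adjusted p = 0.51). The sums of 8 astrocyte markers (18.5 to 20.7 against 17.3 to 19.8), 8 oligodendrocyte markers (9.71 to 10.7 against 7.06 to 11.3), 8 microglia markers (2.03 to 2.07 against 1.45 to 2.84) and 8 CA3 and CA2 markers (9.22 to 9.40 against 8.21 to 9.58) overlapped. So did that of 6 oligodendrocyte precursor markers (0.288 to 1.68 against 0.589 to 2.50) and that of 6 endothelial markers (0.451 to 1.14 against 0.166 to 0.524). The part of other cells' RNA in the differences between ages was not tested.

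More genes were detected per granule nucleus at 2 years than at 12 weeks. The median was 4974 and 5624 at 2 years and 4635, 4845, 4709 and 4888 at 12 weeks, and both 2-year preparations were above all 12-week preparations. The 4-week medians, 5399.5 and 5075, were also above all 12-week preparations, so the higher number was not particular to 2 years. The means were 5299 ± 460 (SD, n = 2) and 4769 ± 118 (SD, n = 4), and the exact permutation test (two-sided) gave p = 0.0667, the lowest value possible with 2 against 4 preparations. The part of this difference in the gene results was not tested apart from the alternatives with matched or adjusted numbers of detected genes. Granule nuclei made up 66.7% and 83.3% of the sets at 2 years and 65.9% to 97.5% at 12 weeks (exact permutation p = 0.533, two-sided). The median correlation between granule nuclei of a preparation was 0.318 and 0.350 at 2 years and 0.310 to 0.321 at 12 weeks (exact permutation p = 0.2, two-sided).

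**Figure D5:**
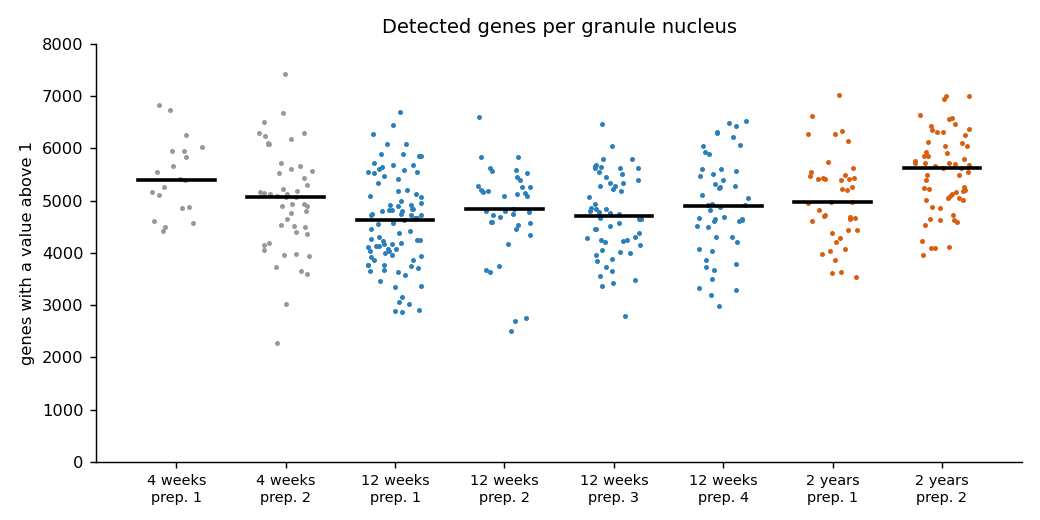
Genes with a value above 1 in each granule nucleus (y axis) by age and preparation (x axis). Each point is 1 nucleus and each bar the median. The 2-year medians are 4974 and 5624, the 4-week medians 5399.5 and 5075, and the 12-week medians lie between 4635 and 4888.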

How the data were processed

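Single-nucleus cDNA libraries were made by a modified Smart-seq2 protocol, per the labels' protocols. The authors deposited 1 table of natural log values, ln(value + 1) labelled TPM, 1 column per nucleus. Bowtie2 (version not given in the sources used here), RSEM 1.27 and the mm10/GRCm38 build are named in the submitters' processing notes. The natural log was checked on the spacing of low values in 200 pairs of nuclei. Back-transformed totals per nucleus ran from 2.57 to 11.4 times the total that defines TPM, and read depth is not given. Totals were not rescaled in the main fit. With rescaled totals Camk2d, Id2, Lypd1 and Crym were still called, and Mmp17 and Alcam were not. Of the table's columns, 371 were not used here. No 2 of the nuclei used held identical values.

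Per preparation, log2(value + 1) was averaged over granule nuclei. A gene was tested when its value exceeded 1 in 20% or more of the nuclei in any preparation. Preparations needed 10 nuclei. The fit was limma 3.58.1 (R 4.3.3) with a variance trend, over 8 preparations, with the contrast 2 years minus 12 weeks and Benjamini-Hochberg adjustment. The fit was also run on simulated data. There every preparation was drawn from the pooled 12-week nuclei, so no real spread between preparations was present. That run therefore cannot show whether the p-values hold. Doublets were not called. Per-sample measures used exact permutation tests over all arrangements of the preparations. Wilson intervals were computed with scipy 1.17.1. Coordinates come from GENCODE vM21 (GRCm38) and the printed sequence from RefSeq (GRCm38.p6).

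The members and lists were chosen with earlier results of these data known. Named genes were Camk2d, Id2 and Lypd1, the up to 12 called genes per direction with the largest difference and separate groups, up to 4 called members per list, and otherwise the member with the lowest p. Genes named as relatives of these, and members with the next lowest p, were added after their values were seen. In all, 23 alternatives were run.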

Additional observations from a re-analysis of the deposited data

Results flagged for a closer look

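A preparation counted as far from the others when its gap to the nearest, over the range of its group, passed Dixon's 95% limit for 4 values. Chance flags about 1 in 20 groups, and 54 measures were tested in the 4 preparations of 12 weeks. The 2-year group was too small for this test. Lypd1 was flagged at 9.08 in preparation 3 of 12 weeks, where the others were at 7.28 to 7.57. Nrn1 was flagged at 9.82 in preparation 4 of 12 weeks, where the others were at 8.71 to 8.89. For Lypd1 the flagged preparation lies on the far side of the 12-week group from the 2-year values, and without it the gene was still called lower. For Nrn1 the flagged preparation is the 12-week value nearest to those of 2 years.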

How the results depend on the processing

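The 53 called genes became 16 with detected genes as a covariate (56.2% of them higher), 30 with quantile normalization (73.3%), 8 in nuclei with 4000 to 6000 genes (62.5%), 25 with rescaled totals, 24 with a pseudocount of 10, 6 without the variance trend and 1 without the filter, against 92.5% higher in the 53. With a mean filter 86 were called, with only 2 years and 12 weeks 177, and without the second 12-week set of preparation 1 (added after seeing the data) 89. With the log2 of the mean, and without nuclei that had glial or Slc17a6 detection, 0 were called by limma, with 909 and 870 at unadjusted p under 0.05. Leaving out 1 preparation gave 4 (without 2-year preparation 1) to 143 (without 4-week preparation 1, added after seeing the data). Fewer nuclei or preparations were in several of these fits, and the cause of the other changes was not tested.

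With the replicate block 1 gene, Camk2d, was called. The labels do not say that equal numbers share an animal. The correlations of equal numbers were 0.08 and 0.02, and those of unequal numbers ran from -0.08 to 0.04. With 2 preparations at 2 years, the correlations of preparation 1 mirror those of preparation 2, so they cannot show whether preparations were paired. Camk2d lost its call in 2 of 23 alternatives, Id2 in 5 and Lypd1 in 6, none with a change of direction. The other named called genes lost theirs more often. Dkk3 did so in 7 of the 21 alternatives that tested it. Of 23 alternatives, Pisd-ps3 lost its call in 7, Nrxn3 in 8, Atp5l and Eif4a3 in 9, and Ndufc2, Vapa and Rpl36al in 10. Rpl10 lost it in 11, Arl6ip5 and Timm23 in 12, Crym and Mmp17 in 13, and Atp5g3 in 14. Calm2 lost it in 15, Ndfip1 and Alcam in 16, and Uqcrb in 17.

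Of 1147 pairs of a named gene and an alternative, 895 kept direction and side of the threshold, 222 lost the call, 25 gained one and 5 reversed. The reversed differences were those of Crebbp and Celf5 without 2-year preparation 1 (leaving out 1 preparation gave -1.93 to 0.11 and -2.78 to 0.23), Fdps (-0.0061) in nuclei with 4000 to 6000 genes, and Cx3cr1 with the covariate (0.18) and without 2-year preparation 2 (-0.40 to 0.017). The difference in the share of granule nuclei reversed without 2-year preparation 1 (-15.9 to 0.786 percentage points). With 2 preparations at 2 years, spread within that age is estimated from 1 difference.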
